A study of Homo sapiens with 9 samples.

Results

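Transcript usage, the division of a gene's reads among its annotated transcripts, was described for 8 genes: BUB1, C7orf50, ADARB1, CAPN15, EEF1D, MYL12A, DCLK1 and TRMU. The genes were picked because the shares of their transcripts had differed after knockdown in these same libraries, so the values given for them are descriptions and carry no test. Together they have 132 annotated transcripts, of 195887 transcripts from 58425 genes that could be matched to an annotation. The libraries hold RNA of the nuclei of a human osteosarcoma line, U2OS, taken 48 hours after RNAiMAX transfection of 15 nM siRNA. The groups were siDyskerin (siRNA against dyskerin, the product of DKC1), siGAR1 (siRNA against GAR1) and siControl (control siRNA), with 3 biological replicates each and 9 libraries in all. All groups were transfected in the same line, and a knockdown lowers the targeted transcript without removing it.

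Dyskerin is the pseudouridine synthase of the H/ACA complex, and GAR1 is another of the core proteins of that complex. The complex modifies ribosomal and small nuclear RNA, in most cases under the guidance of small nucleolar RNAs that lie in the introns of host genes. A gene can give rise to several transcripts through alternative start sites, splicing, retention of introns and early polyadenylation within an intron, and nuclear RNA also holds molecules that are still being processed. In the annotation used here, GENCODE 44 on GRCh38, a transcript of a coding gene can be marked as coding, as a retained intron, as a target of nonsense-mediated decay or as having no defined coding sequence. The MANE transcript is the one that Ensembl and NCBI chose to represent a gene, and its exons and introns are used below to give positions. No gene for a small nucleolar or small Cajal body RNA is annotated within the 8 genes (0 of 16 overlapping genes).

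DKC1 averaged 3099 ± 24.1 normalised counts in siDyskerin (SD, n = 3), against 21477 ± 1076 in siControl, a log2 fold change of -2.79. GAR1 averaged 96.9 ± 15.9 normalised counts in siGAR1 (SD, n = 3), against 619 ± 39.5 in siControl, a log2 fold change of -2.68. The summed reads of the libraries were between 48838756 and 90698675. VIM, FN1, SPARC, COL1A1, RUNX2 and THY1, which mark mesenchymal and bone cells, were detected in every library, whereas COL1A2 was at or near 0. CD3E and HBB, markers of blood, were at 0 in all 9 libraries. ALB, a marker of hepatocytes, had 12.1 and 37.0 normalised counts in siGAR1 replicates 2 and 3 and 0 in the other 7 libraries. PTPRC, KRT5 and KRT19 had at most 32.1 normalised counts, and the epithelial markers EPCAM and CDH1 had 87.0 to 278. In bulk RNA a lower level in every cell and fewer cells with the RNA cannot be told apart.

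The values are reads per transcript, and reads from exons that several transcripts have in common were entered for each of these transcripts. This was seen in 2404 pairs of nested transcripts from 1833 genes, where the outer transcript had at least as many reads as the inner in every library for 2400 pairs. A share below is the reads of a transcript as a percentage of the summed reads of its gene, and it is therefore a share of a sum in which shared exons count several times. For the same reason a share says little about a transcript whose exons are all found elsewhere, and bases that no other transcript of the gene covers are called its own bases. A transcript with many own bases is followed most directly. The summed count of a gene likewise enters a read once for each transcript it fits, so it is not a count of separate reads. The tests of gene counts and of transcript usage below rest on these same values.

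For each gene the transcript with the largest difference of its mean share, among those whose 3 knockdown libraries did not overlap the 3 siControl libraries, is called the lead transcript. The leads were BUB1-210, C7orf50-206, ADARB1-207, CAPN15-205, EEF1D-251, MYL12A-212, DCLK1-205 and TRMU-210. The share of 4 leads was higher than in siControl after both knockdowns (C7orf50-206, ADARB1-207, CAPN15-205 and DCLK1-205) and that of 2 was lower after both (EEF1D-251 and MYL12A-212). The share of the remaining 2, BUB1-210 and TRMU-210, was lower in siDyskerin and overlapped siControl in siGAR1. Of the 132 transcripts, 41 had a higher and 29 a lower share in siDyskerin without overlap with siControl, and 34 and 35 in siGAR1. Of all 104054 transcripts tested, 6.03% were higher and 6.06% lower by the same measure in siDyskerin, and 6.89% and 6.58% in siGAR1. Between the knockdowns, 18 of the 132 were higher and 11 lower in siDyskerin than in siGAR1 without overlap, beside 5.99% and 6.3% of all transcripts. These counts, and those for single genes below, were fixed in part by how the genes were picked, and nothing is read from them.

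**Figure D1:**
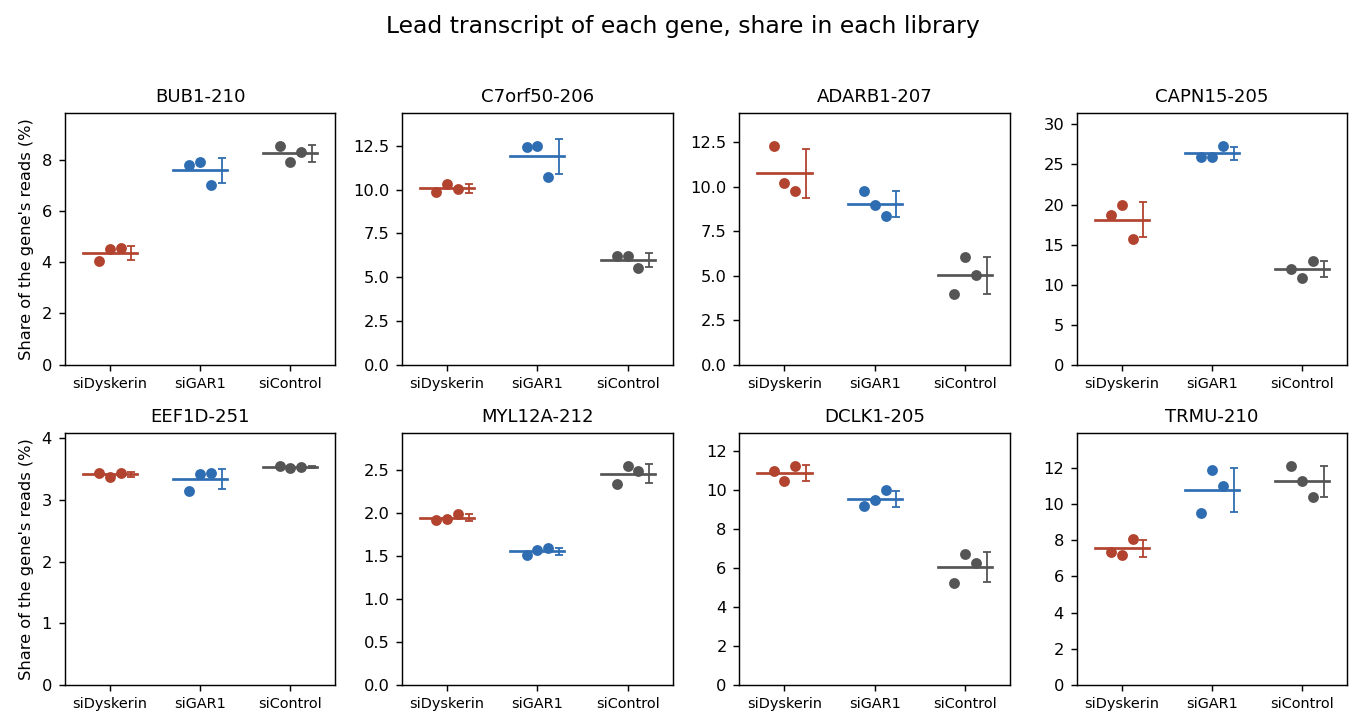
Share of the lead transcript in the reads of its gene (%, y axis, from 0) in each library of siDyskerin, siGAR1 and siControl (x axis). Points are the 3 libraries of a group, horizontal lines the means and whiskers the SD. CAPN15-205 took 15.7 to 19.9% in siDyskerin and 25.9 to 27.4% in siGAR1, against 10.9 to 12.9% in siControl.

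The leads were also described by where they end and how they are annotated. Of the 8 leads, 5 end within an intron of the MANE transcript (62.5%), compared with 20.8% of 88500 tested transcripts of coding genes other than the MANE transcripts. Of the 8 leads, 6 are annotated as retained introns or without a defined coding sequence (75%), compared with 39% of those 88500 transcripts. The leads were chosen on their shares, which can differ most in transcripts with many own bases. In the 5 that end within an intron, 69.9 to 99.6% of the bases are their own. The choice may therefore favour such transcripts, and nothing is read from these figures.

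The 3′ ends of 5 leads are shown, because each of these ends within an intron of the MANE transcript. BUB1-210 and EEF1D-251 are left out. In GENCODE 44 both end in the last exon of the MANE transcript, and both were revised after the version that the reads were counted against. Each line holds the last 30 bases of the transcript from GENCODE 44 on GRCh38, read 5′ to 3′ on the strand of the gene, with the hexamer AATAAA, the most common polyadenylation signal, in capitals.
C7orf50-206 (minus strand, chr7:1024502-1024531): AATAAAaagtttctaatgttgcttgcgaaa
CAPN15-205 (plus strand, chr16:539829-539858): tctcaccaaggAATAAAacgtctctgaata
DCLK1-205 (minus strand, chr13:35845900-35845929): ataactatatAATAAAcaggaaaaactgcc
MYL12A-212 (plus strand, chr18:3248615-3248644): ggcgAATAAAgcgaatatttcttaaaatta
ADARB1-207 (plus strand, chr21:45146266-45146295): tgtttcttgaatatacttttctgaattatg
AATAAA was present in 4 of the 5 windows shown, which are not all the leads with an unchanged annotation, since the window of TRMU-210 is not reported here. It began 19 to 30 bases before the annotated end. ADARB1-207 holds neither AATAAA nor ATTAAA, a frequent variant, in this window. Only the strand of the transcript was searched, and matches of AATAAA and ATTAAA can share at most 2 bases. Among all 166042 quantified transcripts whose annotation is unchanged, AATAAA lies in the last 30 bases of 17.7% and ATTAAA in those of 5.72%. Among tested transcripts that are retained introns or have no defined coding sequence, AATAAA lies in the last 30 bases of 13.5%, among tested coding transcripts, such as DCLK1-205, in those of 24.8%, and among all tested transcripts in those of 19.6%. A match of letters is not evidence that the site was used in these cells.

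**Figure D2:**
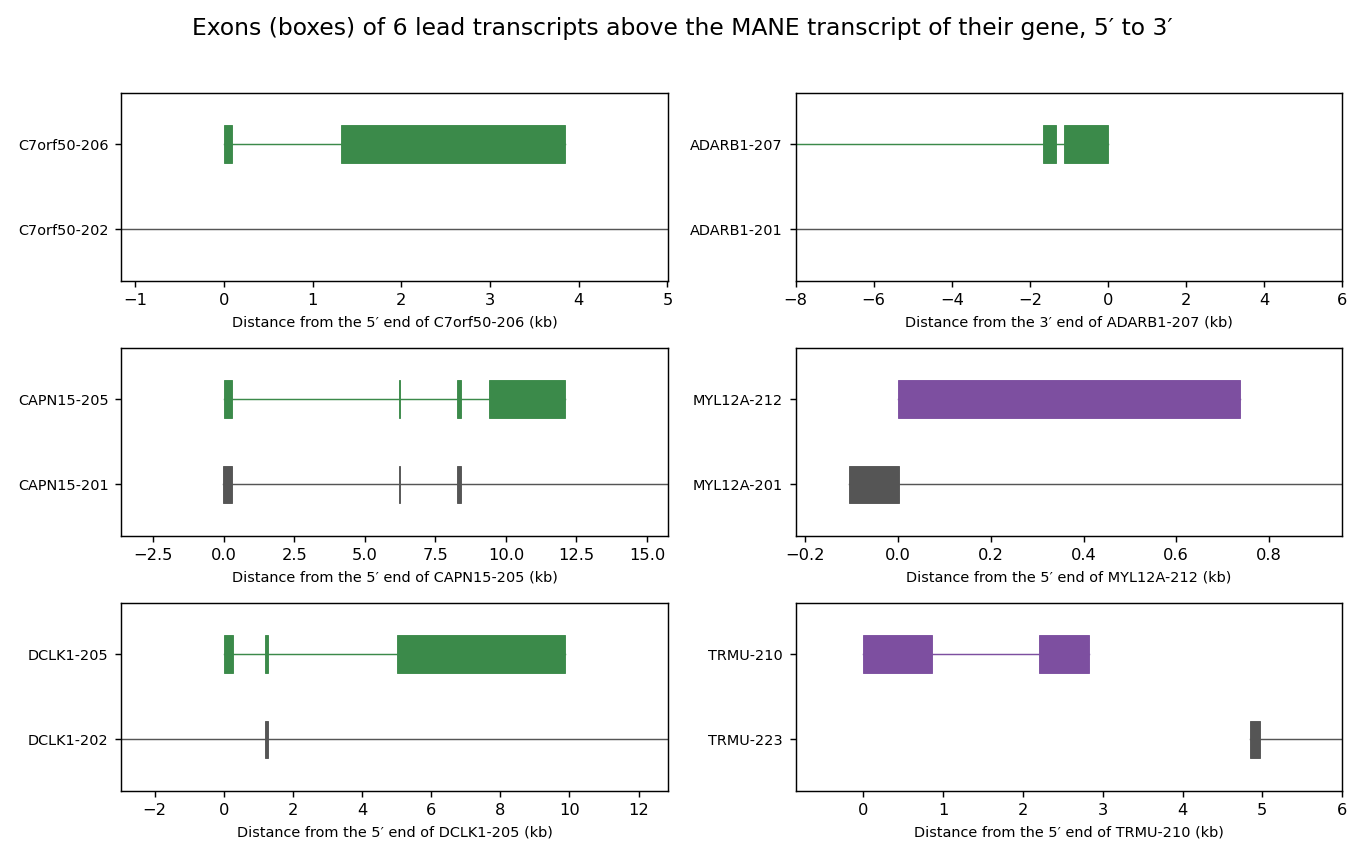
Exons (boxes) of 6 lead transcripts above those of the MANE transcript of the same gene, drawn to scale and 5′ to 3′, with the x axis in kilobases from the 5′ end of the lead (for ADARB1, from its 3′ end). Green leads had a higher and purple leads a lower share than siControl in siDyskerin. The long last exon of C7orf50-206, ADARB1-207, CAPN15-205 and DCLK1-205 lies where the MANE transcript has an intron, and TRMU-210 lies upstream of the MANE transcript.

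ADARB1, EEF1D and TRMU act on RNA or in translation. ADARB1 (ENSG00000197381.18, plus strand, chr21:45073853-45226560) encodes ADAR2, an enzyme that edits adenosine to inosine in double-stranded RNA. The share of ADARB1-207 was 12.3, 10.2 and 9.75% in siDyskerin and 9.77, 8.96 and 8.34% in siGAR1, against 3.98, 6.05 and 5.03% in siControl. Both knockdowns lay above every siControl library, and the knockdowns overlapped each other. The mean share was 2.14 times that of siControl in siDyskerin and 1.80 times in siGAR1. ADARB1-207 has no defined coding sequence and ends at chr21:45146295 in intron 2 of the MANE transcript ADARB1-201. Of its 2523 bases 1797 are its own, most of them in a last exon of 1132 bases (chr21:45145164-45146295).

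The reads of ADARB1-207 were few, with 121, 95 and 90 normalised reads in siDyskerin and 93, 87 and 81 in siGAR1, against 45, 67 and 73 in siControl. Its own log2 fold change was 0.77 (SE 0.17) in siDyskerin and 0.53 (SE 0.17) in siGAR1, whereas the summed count of the gene had -0.38 and -0.35. ADARB1-208, another transcript without a defined coding sequence that ends in intron 2, also had a higher share. It took 2.59, 3.02 and 3.25% in siDyskerin and 2.73, 2.81 and 2.44% in siGAR1, against 1.75, 1.86 and 1.11% in siControl. The 8 ADARB1 transcripts that end in the last exon together took 83.6 ± 0.780% in siDyskerin and 86.1 ± 0.979% in siGAR1, against 90.8 ± 1.01% in siControl (SD, n = 3). None of these 8 had a higher share without overlap. A lower one was seen for 6 in siDyskerin and 4 in siGAR1, beside 6.06% and 6.58% of all transcripts. A pair of the 8 had identical reads in every library and cannot be told apart. ADARB1-206 is among the 8 by its end in GENCODE 44, where it has 3013 bases. It was counted with 704 bases, so its counted end is not known here.

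EEF1D (ENSG00000104529.19, minus strand, chr8:143579697-143599541) encodes the delta subunit of the elongation factor complex eEF1B, which recharges eEF1A with GTP. With 54 transcripts it is the most finely annotated of the 8 genes, and single shares are small. The share of EEF1D-251 was 3.44, 3.37 and 3.44% in siDyskerin and 3.15, 3.43 and 3.43% in siGAR1, against 3.56, 3.51 and 3.53% in siControl. The mean shares were 0.967 and 0.944 times the siControl mean. In GENCODE 44 EEF1D-251 has no base of its own, but it had 1001 bases as counted and has 1118 there. The larger relative differences were in short transcripts that end early. EEF1D-216 took 0.343, 0.266 and 0.353% in siDyskerin and 0.368, 0.346 and 0.370% in siGAR1, against 0.214, 0.213 and 0.243% in siControl.

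Most of the EEF1D transcripts with a higher share end in exon 3 of the MANE transcript. This exon, with 1091 bases (chr8:143588991-143590081), holds the 3′ ends of 18 transcripts. Of these, 17 have the same annotation as the version counted. All 17 had a higher share than siControl without overlap in both knockdowns, beside 6.03% and 6.89% of all transcripts tested. Their shares were 1.38 to 1.71 times the siControl mean in siDyskerin and 1.56 to 2.14 times in siGAR1. Their summed share was 2.90 ± 0.294% in siDyskerin and 3.30 ± 0.215% in siGAR1, against 1.96 ± 0.169% in siControl (SD, n = 3). Their own log2 fold changes were 0.26 to 0.57 in siDyskerin and 0.31 to 0.77 in siGAR1, while the summed count of the gene had -0.22 and -0.33. The 17 overlap each other in exon 3 and the exons before it, so they share reads and are not separate observations. The other transcript that ends there, EEF1D-204, has been revised since (2378 bases as counted, 1750 in GENCODE 44). Its share overlapped siControl in both knockdowns. With it, the 18 took 8.03 ± 0.337% in siDyskerin and 8.43 ± 0.208% in siGAR1, against 7.06 ± 0.197% in siControl (SD, n = 3).

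Outside exon 3, 3 EEF1D transcripts were higher in siDyskerin and 4 in siGAR1, at ratios of up to 1.36 and 1.46. In both knockdowns 3 of these end in exon 4, and EEF1D-212, a retained intron that ends in intron 5, was added in siGAR1. EEF1D-212 took 0.842, 0.799 and 0.682% in siDyskerin and 0.905, 0.781 and 0.811% in siGAR1, against 0.711, 0.701 and 0.658% in siControl. In percentage points its difference in siGAR1 was larger than that of any other EEF1D transcript with a higher share. None of the 22 EEF1D transcripts that end in the last exon in GENCODE 44 had a higher share without overlap. Several of the 22 have been revised since the version counted, so their counted ends are not known here. EEF1D-226, for example, had 473 bases as counted and has 899 in GENCODE 44. Of the 22, 6 were lower in siDyskerin and 8 in siGAR1, beside 6.06% and 6.58% of all transcripts. EEF1D-202, the transcript with the highest siControl share, took 4.95, 5.05 and 5.04% in siDyskerin and 4.98, 4.99 and 4.90% in siGAR1, against 5.13, 5.13 and 5.16% in siControl. Genes on the opposite strand overlap both ends of EEF1D, among them TIGD5, and the reads were counted by strand.

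**Figure D3:**
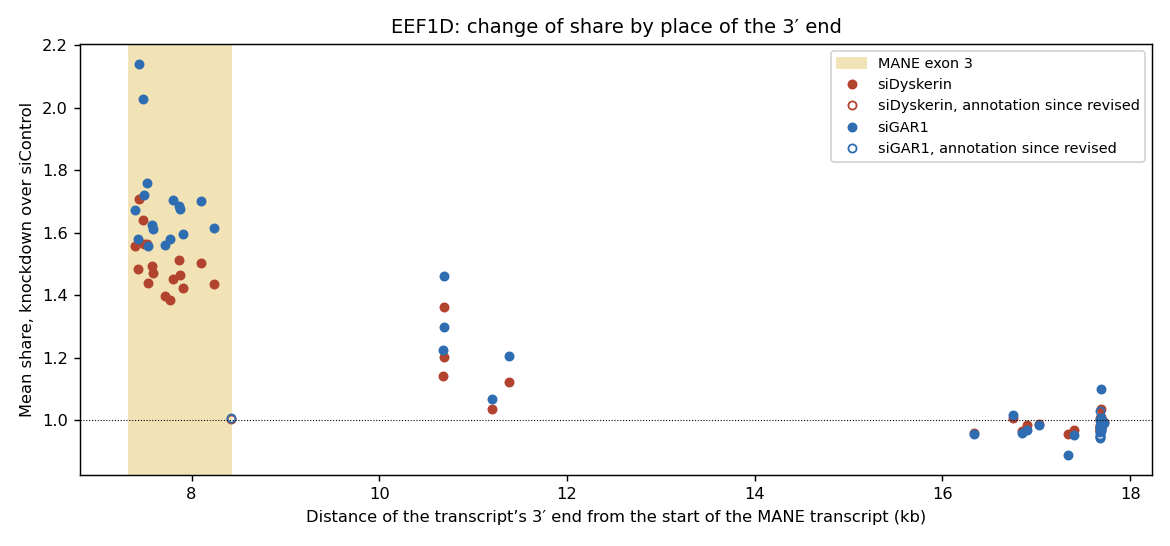
Mean share of each of the 54 EEF1D transcripts relative to siControl (y axis, ratio) against the distance of its 3′ end from the start of the MANE transcript (x axis, kb) in siDyskerin and siGAR1. Filled points are transcripts annotated as in the version counted and open points those since revised. The 17 filled transcripts that end in exon 3 (shaded) lie at ratios of 1.38 or more in both knockdowns.

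TRMU (ENSG00000100416.15, plus strand, chr22:46330875-46357340) encodes an enzyme that thiolates uridine in mitochondrial transfer RNAs. The share of TRMU-210 was 7.37, 7.21 and 8.06% in siDyskerin and 9.51, 11.9 and 11.0% in siGAR1, against 12.1, 11.3 and 10.4% in siControl. All 3 siDyskerin libraries lay below the libraries of both other groups, and siGAR1 overlapped siControl. TRMU-210 has no defined coding sequence, has 2 exons and ends at chr22:46333699, before the MANE transcript TRMU-223 starts at chr22:46335714. Of its 1476 bases 1190 are its own, including the whole last exon of 618 bases (chr22:46333082-46333699).

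The summed count of TRMU was 6169 ± 97.6 in siDyskerin and 4499 ± 316 in siGAR1, against 5054 ± 284 in siControl (SD, n = 3), and siDyskerin lay above siControl. TRMU-210 itself had 459, 437 and 506 normalised reads in siDyskerin and 458, 526 and 471 in siGAR1, against 628, 534 and 543 in siControl. Its log2 fold change was -0.29 (SE 0.09) in siDyskerin and -0.23 (SE 0.09) in siGAR1. The other 16 transcripts had log2 fold changes of 0.18 to 0.47 in siDyskerin and -0.30 to 0.08 in siGAR1. The reads of TRMU-210 were therefore lower by a similar amount in both knockdowns, and it was the other transcripts that differed between siDyskerin and siGAR1. TRMU-206, a nonsense-mediated decay target with the highest siControl share, took 12.1, 12.4 and 12.3% in siDyskerin and 11.8, 11.9 and 11.5% in siGAR1, against 11.8% in each siControl library.

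BUB1, MYL12A and DCLK1 act in cell division and the cytoskeleton. BUB1 (ENSG00000169679.15, minus strand, chr2:110637528-110678063) encodes a kinase of the spindle assembly checkpoint, which delays chromosome separation until kinetochores are attached. The share of BUB1-210 was 4.06, 4.53 and 4.55% in siDyskerin and 7.83, 7.94 and 7.04% in siGAR1, against 8.57, 7.92 and 8.31% in siControl. The siDyskerin libraries lay well below all 6 others, which overlapped. BUB1-210 had 719, 866 and 877 normalised reads in siDyskerin and 1664, 1719 and 1790 in siGAR1, against 1697, 1770 and 1768 in siControl. Its own log2 fold change was -1.09 (SE 0.08) in siDyskerin and -0.02 (SE 0.07) in siGAR1.

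The other 11 BUB1 transcripts had log2 fold changes of -0.17 to -0.02 in siDyskerin and 0.09 to 0.20 in siGAR1, all closer to 0 than BUB1-210 in siDyskerin. BUB1-201, the MANE transcript, took 22.0, 22.1 and 22.2% in siDyskerin and 21.6, 21.5 and 21.2% in siGAR1, against 21.1, 21.4 and 21.7% in siControl. In GENCODE 44 BUB1-210 has no defined coding sequence and starts within intron 19 of BUB1-201 with an exon of 342 bases that no other transcript covers (chr2:110642449-110642790). It then joins the last 6 exons of the gene. The counted version of BUB1-210 was 759 bases long and the one in GENCODE 44 is 1380, so the exact ends of the counted version are not known here.

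MYL12A (ENSG00000101608.13, plus strand, chr18:3247481-3256236) encodes a regulatory light chain of nonmuscle myosin II. The share of MYL12A-212 was 1.92, 1.93 and 1.99% in siDyskerin and 1.51, 1.56 and 1.59% in siGAR1, against 2.34, 2.55 and 2.49% in siControl. The 3 groups did not overlap, with siGAR1 lowest. MYL12A-212 is a single exon of 738 bases (chr18:3247907-3248644) that runs from the end of exon 1 straight into intron 1, and 735 of its bases are its own. Its first 30 bases show that border, with the exon bases in capitals and the intron, which opens with the usual gt, in lower case.
MYL12A-212 (plus strand, chr18:3247907-3247936): CGGgtgagtggcgctcgcgttcgggcgcgt
MYL12A-212 had 331, 384 and 381 normalised reads in siDyskerin and 402, 409 and 395 in siGAR1, against 433, 485 and 463 in siControl, and both knockdowns lay below siControl.

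In siGAR1 the share and the reads of MYL12A-212 were lower while the summed count of the gene was higher. The summed count of MYL12A was 18705 ± 1320 in siDyskerin and 25816 ± 1142 in siGAR1, against 18759 ± 280 in siControl (SD, n = 3). Its log2 fold change was close to 0 in siDyskerin and 0.46 in siGAR1. The own log2 fold change of MYL12A-212 was -0.33 (SE 0.09) in siDyskerin and -0.19 (SE 0.09) in siGAR1. The 6 transcripts that end in the last exon had log2 fold changes of -0.03 to 0.01 in siDyskerin and 0.43 to 0.48 in siGAR1. Among the 12 MYL12A transcripts, 1 set had identical reads in every library and cannot be told apart. MYL12A-202 and MYL12A-209, both of the 6, have the same ends and length. MYL12A-211, the other transcript that ends in intron 1, took 0.269, 0.176 and 0.210% in siDyskerin and 0.115, 0.131 and 0.171% in siGAR1, against 0.247, 0.259 and 0.253% in siControl. MYL12A-201, the MANE transcript, took 19.2% in each siDyskerin library and 19.1 to 19.4% in siGAR1, against 19.1% in each siControl library.

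DCLK1 (ENSG00000133083.15, minus strand, chr13:35768652-36131382) encodes a doublecortin-like kinase that binds microtubules. The share of DCLK1-205 was 10.9, 10.4 and 11.2% in siDyskerin and 9.18, 9.45 and 9.98% in siGAR1, against 5.21, 6.72 and 6.24% in siControl. No 2 of the groups overlapped, and siDyskerin was highest. DCLK1-205 had 526, 566 and 553 normalised reads in siDyskerin and 600, 600 and 551 in siGAR1, against 281, 393 and 354 in siControl. It is annotated as coding, starts in intron 5 and ends in intron 6 of the MANE transcript DCLK1-202. Its last exon (chr13:35845900-35850776) lies within intron 6, and 4023 bases of it are its own.

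DCLK1-203, which starts in exon 1 and ends in the same intron 6, took 1.87, 1.86 and 1.92% in siDyskerin and 1.62, 1.35 and 1.54% in siGAR1, against 0.749, 1.06 and 1.26% in siControl. Its last exon lies within that of DCLK1-205, so the 2 transcripts share reads there. Of the 4 transcripts ending in an intron, 3 had a higher share without overlap in both knockdowns, beside 6.03% and 6.89% of all transcripts. The own log2 fold change of DCLK1-205 was 0.68 (SE 0.10) in siDyskerin and 0.78 (SE 0.10) in siGAR1, whereas the summed count had -0.16 and 0.12. The 4 transcripts that end in the last exon, took 86.9 ± 0.421% in siDyskerin and 88.5 ± 0.400% in siGAR1, against 92.7 ± 0.905% in siControl (SD, n = 3). All 4 had a lower share without overlap in both knockdowns, beside 6.06% and 6.58% of all transcripts. In this gene as in the others the shares sum to 100%, so higher and lower shares are not separate observations. The 4 transcripts had log2 fold changes of -0.26 to -0.23 in siDyskerin and 0.03 to 0.08 in siGAR1. Of the 4, DCLK1-208 had 7592 bases as counted and has 4697 in GENCODE 44, and DCLK1-202 had 8007 and has 8394. The counted ends of both are not known here.

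CAPN15 and C7orf50 complete the set. CAPN15 (ENSG00000103326.12, plus strand, chr16:527712-554636) encodes an atypical calpain, a family of cysteine proteases. The share of CAPN15-205 was 18.7, 19.9 and 15.7% in siDyskerin and 25.9, 26.0 and 27.4% in siGAR1, against 12.0, 10.9 and 12.9% in siControl. The 3 groups did not overlap, and the mean share was 1.52 times that of siControl in siDyskerin and 2.22 times in siGAR1. CAPN15-205 had 256, 236 and 215 normalised reads in siDyskerin and 338, 335 and 330 in siGAR1, against 181, 155 and 182 in siControl. It has no defined coding sequence, shares the first 3 exons of the MANE transcript CAPN15-201 and ends with an exon of 2725 bases (chr16:537134-539858) inside intron 3. The last 2219 of those bases are its own.

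Of the 6 transcripts ending beyond intron 3, 4 had a lower share without overlap in both knockdowns, beside 6.06% and 6.58% of all transcripts. These were CAPN15-201, CAPN15-202, CAPN15-203 and CAPN15-208. CAPN15-207 was lower in siGAR1 alone, and CAPN15-204 overlapped siControl in both. CAPN15-201 took 41.5, 41.2 and 43.0% in siDyskerin and 37.9, 38.0 and 37.1% in siGAR1, against 45.0, 46.0 and 44.4% in siControl. CAPN15-202, which ends in exon 4, took 2.41, 2.73 and 2.09% in siDyskerin and 2.27, 2.58 and 2.90% in siGAR1, against 3.79, 3.89 and 4.05% in siControl. CAPN15-206, which lies within intron 3, took 1.31, 1.92 and 1.36% in siDyskerin and 2.20, 1.72 and 2.90% in siGAR1, against 0.606, 1.19 and 1.58% in siControl, and was separate from siControl in siGAR1 alone. The own log2 fold change of CAPN15-205 was 0.46 (SE 0.11) in siDyskerin and 0.96 (SE 0.10) in siGAR1, whereas that of the summed count was -0.15 and -0.20. Intron 3 also holds the hairpin of MIR3176, downstream of CAPN15-205.

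C7orf50 (ENSG00000146540.15, minus strand, chr7:996986-1138260) is named for its place in the genome. The share of C7orf50-206 was 9.85, 10.3 and 10.0% in siDyskerin and 12.4, 12.5 and 10.7% in siGAR1, against 6.23, 6.20 and 5.54% in siControl. The 3 groups did not overlap, and siGAR1 was highest. C7orf50-206 had 409, 412 and 425 normalised reads in siDyskerin and 467, 498 and 458 in siGAR1, against 339, 335 and 306 in siControl. It is marked as a retained intron, lies wholly within intron 2 of the MANE transcript C7orf50-202 (117113 bases) and touches none of its exons. Of its 2621 bases 2539 are its own, and its last exon is chr7:1024502-1027027. The hairpin of MIR339 lies 1475 bases beyond its end, in the same intron and on the same strand.

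The other 7 C7orf50 transcripts behaved alike, with log2 fold changes of -0.52 to -0.38 in siDyskerin and -0.60 to -0.50 in siGAR1. C7orf50-206 had 0.34 (SE 0.09) in siDyskerin and 0.53 (SE 0.09) in siGAR1. The summed count of the gene was 4118 ± 108 in siDyskerin and 3988 ± 211 in siGAR1, against 5464 ± 48.5 in siControl (SD, n = 3). C7orf50-201, the transcript with the highest siControl share, took 17.4, 17.6 and 17.2% in siDyskerin and 17.6, 17.4 and 17.6% in siGAR1, against 18.3, 18.4 and 18.5% in siControl.

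**Figure D4:**
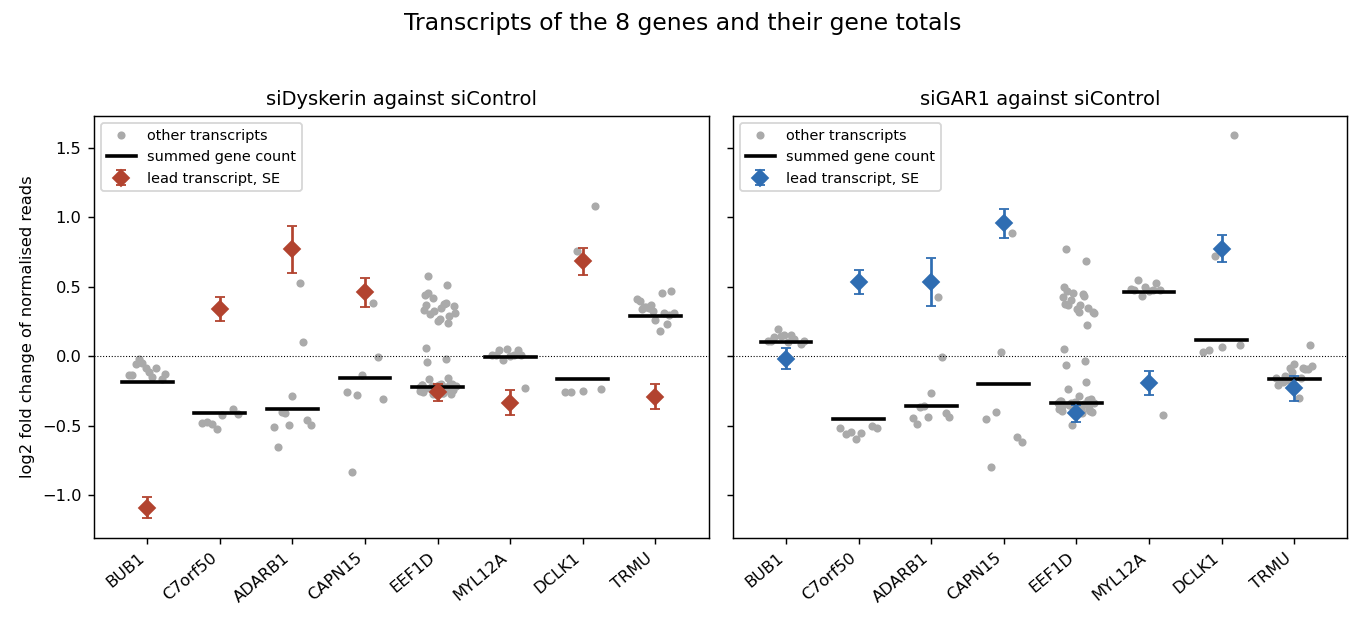
Log2 fold change of normalised reads (y axis) for each tested transcript of the 8 genes (x axis) in siDyskerin and in siGAR1 against siControl. Diamonds with SE are the lead transcripts, grey points the other transcripts and black lines the summed gene counts. In C7orf50, ADARB1 and CAPN15 the lead lies above 0 in both knockdowns and the gene total below it, and BUB1-210 stands alone at -1.09 in siDyskerin.

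With edgeR's test of transcript usage, 7 of the 8 genes were called at an adjusted p under 0.01 in siDyskerin against siControl (MYL12A was not), beside 0.174% of all 12644 genes tested. In siGAR1 against siControl 6 were called (BUB1 and TRMU were not), beside 0.166% of all genes. In siDyskerin against siGAR1 BUB1, CAPN15 and TRMU were called, beside 0.206%. The genes were picked on these contrasts, which share their control libraries, and nothing is read from the counts. In siDyskerin CAPN15 lost its call without siControl replicate 2, siDyskerin replicate 1 or siDyskerin replicate 2, which left 6 genes in each case. In siGAR1 ADARB1 lost its call without siControl replicate 1 or 3 or siGAR1 replicate 1 or 2, and DCLK1 without siControl replicate 1, which left 4 genes without siControl replicate 1 and 5 in the other cases. In the direct comparison CAPN15 lost its call without any 1 of the 6 knockdown libraries, and TRMU without siDyskerin replicate 1 or 2 or siGAR1 replicate 2, which left 1 to 2 genes. With an F-test per gene TRMU lost its call in siDyskerin (adjusted p = 0.012 from edgeR) and in the direct comparison (adjusted p = 0.061 from edgeR). At the level of summed counts none of the 8 genes was called in either knockdown (adjusted p under 0.01 and an absolute log2 fold change above 1), beside 0.938% of 18444 genes in siDyskerin and 0.282% in siGAR1. By the adjusted p alone, 1 of the 8 was called in siDyskerin (C7orf50), beside 6.4% of all genes, and 3 in siGAR1 (C7orf50, EEF1D and MYL12A), beside 3.42%. The log2 fold changes of the 8 were -0.41 to 0.29 in siDyskerin and -0.45 to 0.46 in siGAR1.

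Relatives and partners of 7 of the 8 genes were taken from a list of 36, and 33 of these could be tested for transcript usage. In siDyskerin 0 of 33 were called by edgeR (1, CAST, the inhibitor of calpains, at an unadjusted p under 0.05), and limma with voom and the F-test per gene also gave 0. In siGAR1 MAD1L1, a checkpoint protein that acts beside BUB1, was called (adjusted p = 1.4e-05 from edgeR's diffSpliceDGE), and its adjusted p without siGAR1 replicate 1 was 0.041. MAD1L1-208, a coding transcript (minus strand, chr7:1898200-1940549) named after its values were seen, took 6.86, 6.41 and 4.93% in siGAR1, against 4.17, 3.96 and 3.68% in siControl. In siDyskerin it took 3.95, 4.31 and 4.27%. The median over partners of the largest relative log2 change of any transcript was 0.12 in siDyskerin and 0.12 in siGAR1, against 0.12 and 0.13 over all genes.

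At the level of summed counts, 34 partners could be tested and 0 were called in either knockdown by edgeR, DESeq2 or any other alternative tried (9 and 13 at an unadjusted p under 0.05 in siDyskerin and siGAR1). In siDyskerin 2 passed the adjusted p alone on the lower side, beside 3.32% of all genes, and 1 on the higher side, beside 3.08%. AURKB, the kinase of the chromosomal passenger complex, had a log2 fold change of -0.93 (SE 0.08, adjusted p = 6.1e-06), MAD2L1, a checkpoint protein, -0.45 (SE 0.07, adjusted p = 4.0e-04), and CAPN7, another calpain, 0.35 (SE 0.07, adjusted p = 6.1e-03). In siGAR1 MYL9, another myosin regulatory light chain, passed alone with -0.47 (SE 0.09, adjusted p = 5.6e-03), beside 1.79% of all genes on the lower side, and 0 partners passed on the higher side, beside 1.63%. The median log2 fold change of the 34 was -0.05 in siDyskerin and -0.03 in siGAR1, against 0.00 and 0.01 over all genes.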

How the data were processed

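Nuclear RNA of U2OS cells was depleted of ribosomal RNA and made into stranded libraries, which were sequenced as read pairs. The authors trimmed the reads (Trim Galore 0.6.4), removed ribosomal and transfer RNA (Bowtie2 2.4.1) and quantified transcripts with Salmon 1.2.0 against GENCODE 27 on GRCh38 with bias correction. The deposited values used here stand in Salmon's column of estimated counts per transcript. Such estimates normally divide a read among its transcripts, but these values are whole numbers apart from 8 and behave as if a read were entered in full for every transcript it fits. How they came to be so is not given in the sources used here. The deposited TPM values served for an alternative only.

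Transcripts were matched to GENCODE 44 by identifier without version, and 4514 of 200401 transcripts (3.69 to 3.84% of the reads) were not matched and were left out. These counts were rounded to whole numbers and summed per gene for gene counts. Counts were normalised by TMM factors (0.982 to 1.02) and fitted with edgeR 4.0.16 over all 9 libraries. Transcript usage was tested with diffSpliceDGE (Simes, 12644 genes) and gene counts with the quasi-likelihood test (18444 genes), with Benjamini-Hochberg adjustment over all genes. Of the 132 transcripts of the 8 genes, 128 passed the filter on low counts, and all 132 had their shares described. In GENCODE 44, 110 of the 132 have the version that was counted. For the others the counted ends are not known here. Intervals and tests cover the spread between these libraries.

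The members, the named transcripts, the partner genes and the lists were chosen with earlier results of these data known. The named transcripts were the one with the highest siControl share and, for each knockdown, up to 3 with the largest differences in each direction among those without overlap. Alternatives were relative log expression factors, other filters, limma 3.58.1 with voom, the F-test per gene, DESeq2 1.42.0, lengthScaledTPM counts, a replicate block, TPM shares and leaving out each library. The end sequence of the TRMU lead is not reported here.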

Additional observations from a re-analysis of the deposited data

How the results depend on the processing

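No pair of a lead and a knockdown without overlap with siControl changed direction among the 176 alternative values of the share difference. For such a pair, leaving out a library cannot reverse the difference. Only TPM shares and shares among the transcripts that passed the filter could have shown a reversal. The direction of overlapping pairs was not judged. Leaving out a library gave 144 of the values, and all moved by less than the SD between replicates. A mean of 3 libraries cannot move by as much as its SD when 1 is left out, so nothing is read from these 144. Of the rest, 22 moved by less than that SD. The other 10 were differences of TPM shares, in percentage points for siDyskerin and siGAR1 minus siControl. They were -9.22 and -1.60 for BUB1-210 (reads -3.88 and -0.66), 1.38 and 2.09 for C7orf50-206 (reads 4.08 and 5.91), 3.09 and 7.69 for CAPN15-205 (reads 6.17 and 14.5), 6.92 and 4.85 for DCLK1-205 (reads 4.81 and 3.48), and -0.83 and -1.35 for MYL12A-212 (reads -0.51 and -0.90). For the log2 fold changes of summed counts, changes of sign were not judged in the 224 alternative values. Of these, 3 with a library left out and 3 from other alternatives moved by at least the SE. The number of genes called for transcript usage depended on the test. It was 22 in siDyskerin, 21 in siGAR1 and 26 for siDyskerin against siGAR1, and with the F-test per gene 54, 37 and 56. With limma and voom it was 32 in siGAR1 and 40 for siDyskerin against siGAR1. The F-test per gene left 6 of the 8 genes called in siDyskerin, where TRMU lost its call (adjusted p = 0.012), and 2 for siDyskerin against siGAR1, where TRMU lost it as well (adjusted p = 0.061). For gene counts, 173 genes were called in siDyskerin and 52 in siGAR1, against 347 and 154 without the filter on low counts, and 34 in siGAR1 with lengthScaledTPM counts. The cause was not tested. Leaving out each library gave 12 to 24, 7 to 21 and 13 to 30 genes for usage, and 127 to 194 and 34 to 55 for gene counts. Over the 8 genes it gave 6 to 7, 4 to 6 and 1 to 3 calls for usage and 0 for gene counts, and over the partners 0 in siDyskerin and 0 to 1 in siGAR1. Of the 16 pairs of a lead and a knockdown, 14 did not overlap siControl, and 14 to 15 without a library. Groups that do not overlap stay apart when a library is left out. This count could therefore not fall below 14, and nothing is read from it.

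Same-numbered libraries of different groups correlated in their deviations at -0.07 to 0.10, and libraries with other numbers at -0.10 to 0.06. These ranges overlap and do not settle whether the replicate numbers pair the libraries. With the replicate number as a block 25, 24 and 26 genes were called for usage and 176 and 48 for gene counts, and 7, 6 and 3 of the 8 genes kept their calls.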
